A study of Homo sapiens with 12 samples.

Results

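The mRNAs of 60 mitosis and spindle checkpoint genes were followed in WI-38, a line of human diploid fibroblasts from fetal lung. They were measured as the cells became senescent and as the neurotrophin BDNF or its receptor TrkB (gene NTRK2) was silenced. The genes were taken from a list of named factors for mitotic entry, the spindle, the checkpoint, condensin and cytokinesis, with the kinesins other than CENPE left out. All 60 were found among the 57773 genes in the files, and all 60 were among the 21518 genes with enough counts to be tested.

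Cells enter mitosis when B-type and A-type cyclins activate CDK1, and Polo-like and Aurora kinases then drive centrosome separation, chromosome condensation and spindle assembly. The spindle assembly checkpoint reads unattached kinetochores and holds back CDC20, the activator of the anaphase promoting complex, until every chromosome is attached; securin and cyclin B are then destroyed, separase cuts cohesin, and the daughter cells part in cytokinesis. Most of these genes are transcribed late in the cell cycle and are kept off in cells that have left it, through the DREAM and MuvB complexes, which bind a short promoter element called the CHR, and through loss of FOXM1. Senescent fibroblasts have left the cell cycle for good, and a low level of these mRNAs is one of their usual marks.

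Polyadenylated RNA from bulk cultures was sequenced in 4 groups of 3 libraries. The proliferating cells received a non-targeting siRNA pool (siCtrl) and then 8 days of the vehicle DMSO (siCtrl_Prolif). The 3 senescent groups received siCtrl (siCtrl_Sen), a pool against NTRK2 (siNTRK2_Sen) or a pool against BDNF (siBDNF_Sen), and then 8 days of 50 µM etoposide, a topoisomerase II poison that breaks DNA. Each pool was used at 25 nM, all cells came from the same line at low population doublings, and no group of proliferating cells received siNTRK2 or siBDNF, so that effects of either pool in dividing cells cannot be read from these libraries. The labels do not say whether the 3 libraries of a group came from separate cultures, and the p-values measure the spread between these libraries, which may be technical.

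The libraries held 31567912 to 72328151 counts each. NTRK2 had 7, 15 and 10 counts in the siCtrl_Sen libraries and 0 in each siNTRK2_Sen library, a result that allows up to 3 counts in each, and BDNF mRNA was at 161, 157 and 169 normalized CPM in siCtrl_Sen and at 48.1, 48.9 and 44.3 in siBDNF_Sen. NTRK2 mRNA was thus close to the limit of detection even where it was not targeted. BDNF mRNA was at 163, 158 and 153 normalized CPM in siCtrl_Prolif, where the range overlapped that of siCtrl_Sen. In siNTRK2_Sen it was at 205, 206 and 203, above every siCtrl_Sen library. All 11 fibroblast markers were detected in every library, while markers of other cell types were low and moved with the groups. In normalized CPM, the 6 epithelial markers summed to 17.8 to 20.1 in siCtrl_Prolif, 49.1 to 60.8 in siCtrl_Sen, 41.1 to 47.2 in siNTRK2_Sen and 53.0 to 54.4 in siBDNF_Sen, with 3 of the 4 tested higher in siCtrl_Sen than in siCtrl_Prolif. KRT19 made up most of this sum, at 16.7 to 19.2, 45.5 to 56.4, 37.7 to 42.9 and 47.2 to 49.15 in the same order. The 5 blood cell markers, 4 of them at 0 in every proliferating library, summed to 0.157 to 0.215, 1.37 to 1.76, 0.954 to 1.23 and 1.75 to 1.95 in the same order, and the 4 endothelial markers to 0.812 to 2.11, 2.42 to 2.65, 1.59 to 2.42 and 2.605 to 3.57. The part of these markers in the results was not tested. In RNA from whole cultures, fewer cells in mitosis and less mitotic mRNA per cell cannot be told apart.

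To show what the CHR looks like in genes of this group, the 200 bases before the start of transcription are printed for 4 of them, CDC20, PLK1, MKI67 and BUB1B, all of which are described in detail in the results. The sequences are from RefSeq (GRCh38.p14), are written 5′ to 3′ on the strand of the gene, and show the CHR letters TTTGAA, or TTCAAA where the element lies on the other strand, in capitals. The CDC20 stretch lies at chr1:43358781-43358980 on the plus strand, that of PLK1 at chr16:23678689-23678888 on the plus strand, that of MKI67 at chr10:128126424-128126623 on the minus strand and that of BUB1B at chr15:40160869-40161068 on the plus strand.
CDC20: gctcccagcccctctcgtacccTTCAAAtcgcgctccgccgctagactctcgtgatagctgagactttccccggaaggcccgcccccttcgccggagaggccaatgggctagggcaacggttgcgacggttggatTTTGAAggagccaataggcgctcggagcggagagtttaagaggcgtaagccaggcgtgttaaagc
PLK1: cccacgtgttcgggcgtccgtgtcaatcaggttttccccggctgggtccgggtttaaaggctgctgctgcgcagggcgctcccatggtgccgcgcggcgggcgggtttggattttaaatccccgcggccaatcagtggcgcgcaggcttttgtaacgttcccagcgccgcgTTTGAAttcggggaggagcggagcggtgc
MKI67: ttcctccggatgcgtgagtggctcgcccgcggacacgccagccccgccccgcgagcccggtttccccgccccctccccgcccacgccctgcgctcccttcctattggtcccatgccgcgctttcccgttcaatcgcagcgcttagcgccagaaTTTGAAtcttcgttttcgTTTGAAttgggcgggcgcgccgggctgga
BUB1B: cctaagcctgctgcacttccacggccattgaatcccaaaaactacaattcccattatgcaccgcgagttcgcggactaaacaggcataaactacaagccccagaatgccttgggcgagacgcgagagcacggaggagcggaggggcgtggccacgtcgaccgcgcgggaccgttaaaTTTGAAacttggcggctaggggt

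The element began 178 and 65 bases before the start in CDC20, 29 bases before it in PLK1, 47 and 29 bases before it in MKI67 and 23 bases before it in BUB1B. Of the 60 genes, 50 had an entry in the RefSeq table of promoters, which covers 250 bases before and 50 bases after each start, and these 50 genes had 63 promoters listed. One of the CHR spellings TTTGAA or TTCGAA, on either strand, occurred in 43 of the 63 promoters (68.3%), compared with 16.4% of all 35116 promoters in the table and 12.6% of the 18873 promoters of tested genes. The CCAAT box was found in 66.7% of the 63 promoters and in 34.1% of the promoters of tested genes, and the letters GGCGG, part of the CDE that often accompanies a CHR, in 95.2% and 77.6%.

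The elements clustered close to the start. A CHR began 26 to 50 bases before it in 20.6% of the 63 promoters and 1 to 25 bases before it in 25.4%, compared with 1.51% and 1.26% of all promoters. The 11 genes with a promoter in the table and neither spelling in it were CCNB1, CCNA2, NEK2, MELK, PTTG1, SPC24, CENPE, CENPI, AURKB, NCAPH and TACC3. These matches are descriptions of letters in a fixed window, and no protein binding was measured.

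**Figure D1:**
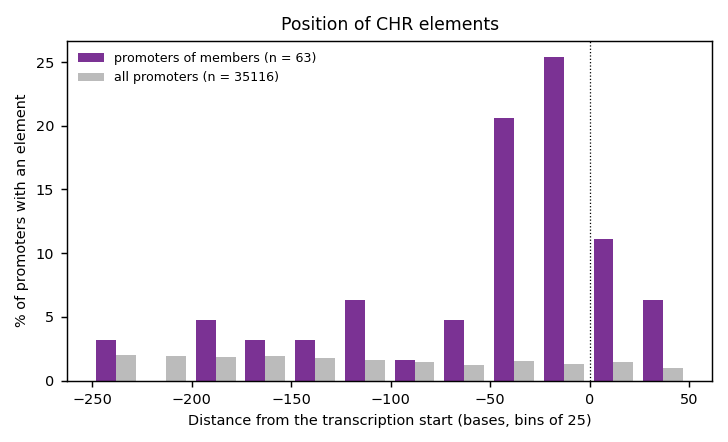
Share of promoters (%, vertical axis) in which a CHR element (TTTGAA or TTCGAA, either strand) begins in each bin of 25 bases along the promoter (horizontal axis, bases from the transcription start), for 63 promoters of mitosis and spindle checkpoint genes (purple) and all 35116 promoters in the RefSeq table (gray). The purple bars are tallest in the 50 bases before the start, at 20.6% and 25.4%, where the gray bars stand at 1.51% and 1.26%.

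To describe these mRNAs in senescent cells, siCtrl_Sen was compared with siCtrl_Prolif. The groups also differ in etoposide, so the drug itself and the senescent state cannot be told apart. A fall or rise in senescence means this comparison throughout. All 60 mRNAs fell, with a median log2 fold change of -3.01, whereas the median of all tested genes was 0.02. Of all genes tested, 28.3% fell at an adjusted p under 0.05 (edgeR), the threshold for a call throughout, and 5.16% fell by more than 1 on the log2 scale as well, a threshold that 56 of the 60 genes passed. In each of the 60 the highest siCtrl_Sen library was below the lowest proliferating library, a separation seen for 29.8% of tested genes. Summed over the 60 genes, the level was 1836 to 1913 normalized CPM in proliferating libraries and 424 to 437 in siCtrl_Sen libraries.

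The level kept in senescence differed widely from gene to gene. The median gene of the 60 kept 12.5% of its proliferating mean, with a range from 6.02% for CDC20 to 87.2% for BUB3. Of the 60, 15 kept under 10%, 41 kept under 20% and 56 kept under 50%. After siNTRK2 the median was 23.3% and the lowest value 11.9%, and no gene was under 10%; after siBDNF the median was 14.2%, and 15 genes were under 10%.

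**Figure D2:**
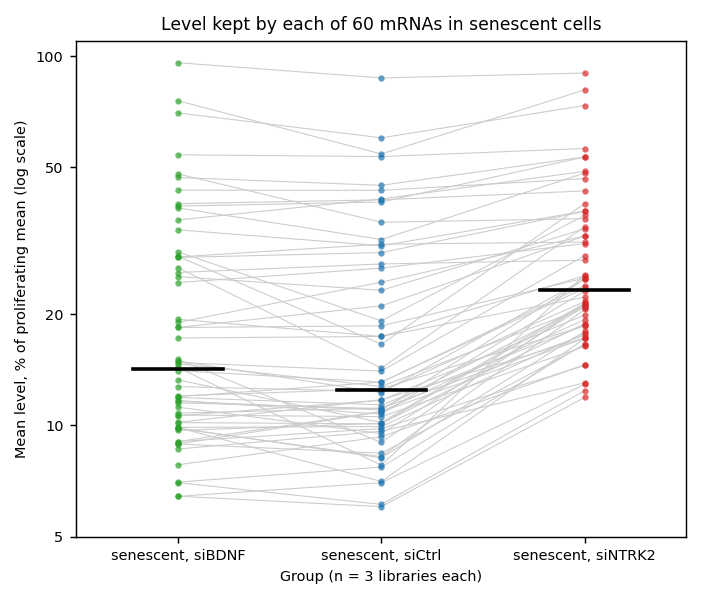
Mean normalized CPM of each of the 60 mRNAs in senescent cells as a percentage of its mean in proliferating cells (vertical axis, log scale), after siBDNF, siCtrl or siNTRK2 (horizontal axis, 3 libraries in each group). Each point is a gene, gray lines join the same gene, and black bars mark the medians of 14.2%, 12.5% and 23.3%.

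To learn whether these low levels differed after the pool against NTRK2 or BDNF, each siRNA group was compared with siCtrl_Sen. With 1 pool per target, loss of the target and other effects of a pool cannot be told apart. After siNTRK2, 49 of the 60 mRNAs rose, none fell and 11 did not pass the test, against 11.1% of all tested genes that rose and 10% that fell. The median log2 fold change was 0.69, compared with 0.00 over all tested genes, and the summed level was 576 to 589 normalized CPM, above the highest siCtrl_Sen sum of 437. All 3 siNTRK2_Sen libraries lay above all 3 siCtrl_Sen libraries for 49 of the 60 genes, compared with 16.8% of tested genes. Only 84 genes (0.39% of those tested) rose by more than 1 on the log2 scale, and 16 of them belonged to the 60. The 16 were MKI67, SKA1, DLGAP5, CENPF, CENPE, ASPM, GTSE1, TTK, NUF2, PLK1, TOP2A, NCAPH, BUB1B, NEK2, NCAPG and HMMR. The rise took these mRNAs part of the way to the proliferating level, of which the median gene of the 60 still lacked most after siNTRK2.

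After siBDNF, 8 of the 60 mRNAs rose, 2 fell and 50 did not pass the test, with a median log2 fold change of 0.05. Over all tested genes 10.3% rose and 10.2% fell, so that the share of the 60 that rose, 13.3%, was close to the background. No gene of the 60 passed the threshold that also asks for a log2 change over 1, which 0.609% of tested genes passed. The sums, 448 to 461 normalized CPM, were above those of siCtrl_Sen, but abundant mRNAs weigh most in a sum. By gene, 34 of the 60 log2 fold changes were positive and 26 negative. The siNTRK2 and siBDNF comparisons share the siCtrl_Sen libraries.

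The direct comparison of siNTRK2_Sen with siBDNF_Sen tests whether the groups that received these pools differed. It cannot separate silencing of receptor and ligand from other effects of the pools. Of the 60 mRNAs, 44 were higher after siNTRK2 (8.84% of all tested genes were), 1 was lower (7.86% were) and 15 did not pass the test, with a median log2 difference of 0.69. The difference exceeded 1 on the log2 scale for 5 genes, PLK1, GTSE1, CDCA8, BUB1B and SKA1, compared with 0.335% of tested genes. The summed level of the 11 fibroblast markers also differed between groups, at 32349 to 34268 normalized CPM in proliferating cells, 23337 to 25134 in siCtrl_Sen, 27399 to 30296 in siNTRK2_Sen and 24126 to 24697 in siBDNF_Sen. The abundant COL1A1, COL1A2 and VIM weigh most in this sum. By marker, 1 was higher and 9 lower in senescence, 7 and 1 after siNTRK2, and 2 and 6 after siBDNF. Between siNTRK2 and siBDNF, 10 were higher after siNTRK2 and 0 lower. What part these markers had in these results was not tested.

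**Figure D3:**
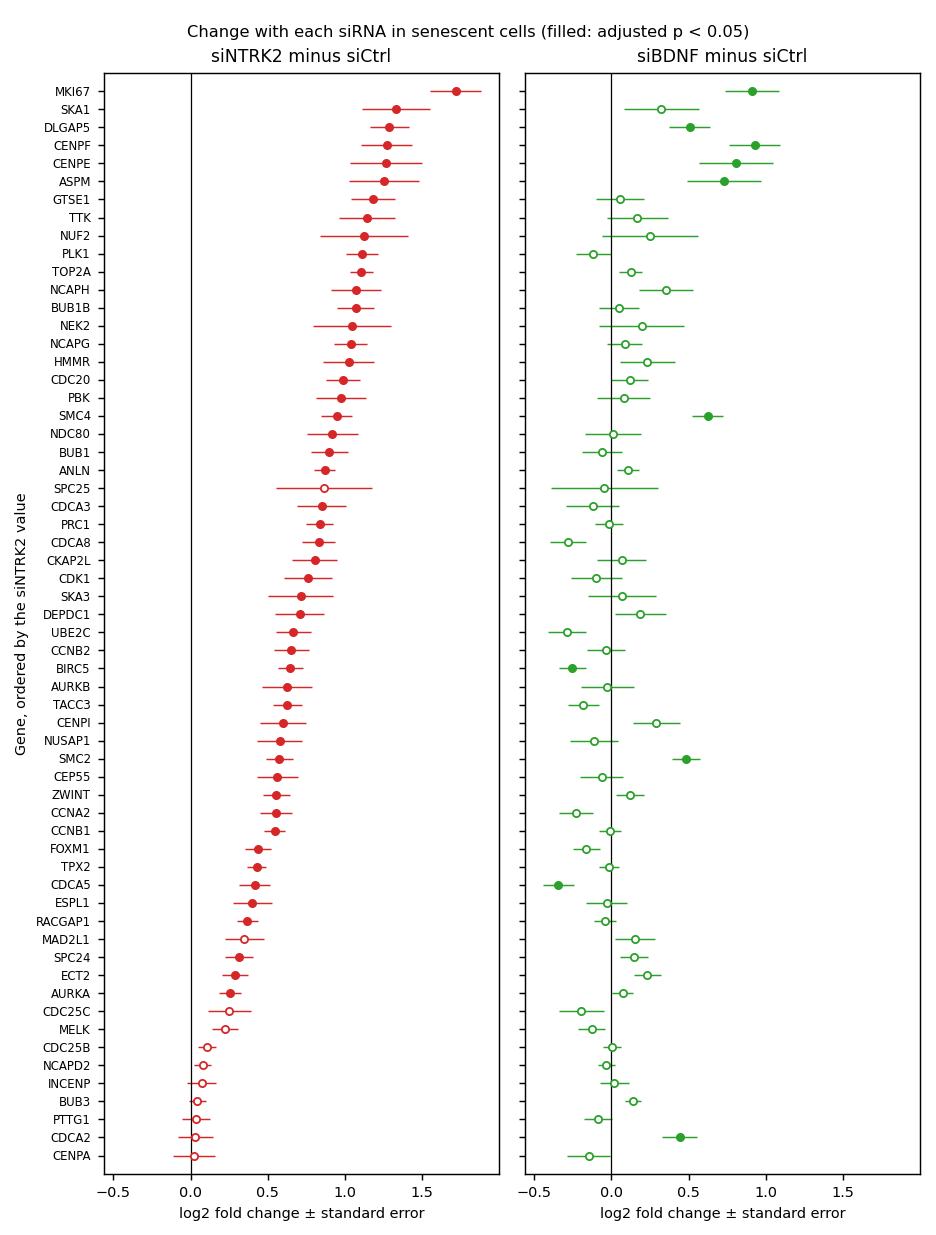
Log2 fold change ± standard error (horizontal axes) of each of the 60 mRNAs (vertical axis, ordered by the siNTRK2 value) after siNTRK2 (left) and siBDNF (right), each against siCtrl in senescent cells with 3 libraries in each group; filled points passed an adjusted p of 0.05. All 60 points lie to the right of 0 after siNTRK2, with 49 filled, whereas after siBDNF they lie on both sides, with 8 filled on the right and 2 on the left.

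In the descriptions that follow, levels are normalized CPM (counts scaled to the library's size by the TMM method), 3 values for a group are its libraries in the order of their numbers, and a fold change is on the log2 scale with its standard error and adjusted p (edgeR's quasi-likelihood test, Benjamini-Hochberg over 21518 genes).

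Of the 11 cyclins, kinases and phosphatases of mitotic entry, all 11 fell in senescence and 8 rose after siNTRK2, and none passed the test after siBDNF. CCNB1, the B-type cyclin that activates CDK1 at mitotic entry, had 70.7, 70.0 and 68.9 in proliferating cells, 12.6, 11.2 and 12.7 in siCtrl_Sen, 16.7, 17.7 and 18.8 in siNTRK2_Sen and 11.7, 12.2 and 12.3 in siBDNF_Sen. The siNTRK2 values stood clear of both other senescent groups, which overlapped each other. The fall in senescence was -2.52 ± 0.06 (adjusted p = 1.58e-20) and the rise after siNTRK2 0.54 ± 0.07 (adjusted p = 1.57e-06).

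CCNA2, the cyclin of S phase and early mitosis, went from 44.3, 44.7 and 40.4 in proliferating cells to 4.35, 5.25 and 5.57 in siCtrl_Sen, and was at 6.53, 7.84 and 7.95 after siNTRK2 and 5.01, 3.94 and 4.23 after siBDNF. CDK1, the kinase that both cyclins activate, went from 18.2, 18.05 and 17.2 to 2.24, 2.43 and 1.58, with 2.83, 3.79 and 4.02 after siNTRK2 and 1.496, 2.07 and 2.11 after siBDNF. For both genes every siNTRK2 library was above every other senescent library. The rises over siCtrl_Sen were 0.55 ± 0.10 for CCNA2 (adjusted p = 0.000365, edgeR) and 0.76 ± 0.15 for CDK1 (adjusted p = 0.000837, edgeR). Part of the CCNA2 gene (254 exonic bases) overlaps EXOSC9 on the opposite strand, and whether the counting used strand is not stated.

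PLK1, the Polo-like kinase that acts from mitotic entry to cytokinesis, was among the mRNAs that fell most and had the largest difference between the silenced groups. It stood at 41.1, 41.4 and 44.2 in proliferating cells, 2.83, 3.26 and 3.69 in siCtrl_Sen, 7.68, 6.61 and 6.80 in siNTRK2_Sen and 2.69, 2.88 and 3.33 in siBDNF_Sen. In siCtrl_Sen it was lower by -3.69 ± 0.10, at 7.71% of the proliferating mean. After siNTRK2 it stood at 16.6%, a rise of 1.11 ± 0.10 (adjusted p = 1.96e-08, edgeR). The difference of siNTRK2 from siBDNF was 1.23 ± 0.10 (adjusted p = 4.24e-09, edgeR), with no overlap.

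NEK2, a centrosome kinase, fell to 6.11% of its proliferating mean, almost as far as CDC20. Its level went from 9.98, 10.5 and 11.2 to 0.517, 0.758 and 0.658, and after siNTRK2 the libraries were at 1.79, 0.645 and 1.49, with 0.733, 0.753 and 0.728 after siBDNF, so that the second siNTRK2_Sen library lay inside the siCtrl_Sen range although the mRNA passed the test (1.04 ± 0.25, adjusted p = 0.00387, edgeR). PBK, a mitotic kinase, rose by 0.97 and CCNB2, the second B-type cyclin, by 0.65 after siNTRK2. AURKA, the Aurora kinase of centrosomes and spindle poles, kept 44.7% in siCtrl_Sen and rose by 0.25 ± 0.07 after siNTRK2 (adjusted p = 0.0098, edgeR).

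The 3 mRNAs of this role that did not pass the siNTRK2 test were both CDC25 phosphatases and the kinase MELK. CDC25B, which helps to activate CDK1 at centrosomes, was at 90.1, 92.1 and 96.2 in proliferating cells, 42.2, 37.4 and 40.9 in siCtrl_Sen, 47.2, 41.6 and 40.8 in siNTRK2_Sen and 39.6, 40.6 and 40.5 in siBDNF_Sen, so that the senescent groups overlapped. Its difference from siCtrl_Sen after siNTRK2 was 0.11 ± 0.06 (adjusted p = 0.223, edgeR), with 0.25 ± 0.14 for CDC25C and 0.22 ± 0.09 for MELK (adjusted p = 0.227 and 0.0673, edgeR). CDC25C shares 293 exonic bases with FAM53C on the opposite strand.

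The 5 spindle assembly checkpoint genes all fell in senescence, and 3 of them, BUB1, BUB1B and TTK, rose after siNTRK2. BUB1, a kinase at unattached kinetochores, had 25.7, 25.2 and 23.2 in proliferating cells, 2.37, 2.91 and 2.22 in siCtrl_Sen, 4.74, 4.01 and 5.22 in siNTRK2_Sen and 2.32, 2.36 and 2.49 in siBDNF_Sen. BUB1B, which encodes BubR1, a part of the complex that inhibits CDC20, had 19.5, 20.02 and 19.5, then 2.12, 2.10 and 1.73, then 4.27, 4.13 and 4.08, then 1.62, 2.14 and 2.24 in the same order of groups. Both mRNAs thus fell to 10.1% of the proliferating mean, and after siNTRK2 they stood at 18.9% and 21.2%. The rises over siCtrl_Sen were 0.90 ± 0.12 (adjusted p = 5.26e-06, edgeR) for BUB1 and 1.07 ± 0.12 (adjusted p = 4.98e-07, edgeR) for BUB1B. A readthrough gene, BUB1B-PAK6, shares 217 exonic bases with BUB1B on the same strand and had at most 179 counts in a library.

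TTK (MPS1), the kinase that starts checkpoint signaling, rose by 1.14 ± 0.18 after siNTRK2 (adjusted p = 5.32e-05, edgeR). MAD2L1, which encodes the MAD2 protein that captures CDC20, was at 18.8, 17.5 and 17.7 in proliferating cells, 2.601, 3.15 and 3.65 in siCtrl_Sen, 3.67, 4.15 and 4.19 in siNTRK2_Sen and 3.45, 3.01 and 4.002 in siBDNF_Sen. Its siNTRK2 libraries lay just above the siCtrl_Sen range, and the difference of 0.35 ± 0.13 missed the threshold (adjusted p = 0.0532, edgeR).

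BUB3, which carries BUB1 and BubR1 to kinetochores, was the exception among the checkpoint genes and among all 60. It had 82.03, 80.4 and 73.7 in proliferating cells, 68.7, 70.7 and 66.6 in siCtrl_Sen, 70.9, 66.3 and 75.1 in siNTRK2_Sen and 74.5, 75.5 and 76.5 in siBDNF_Sen. Its fall in senescence was the smallest of the 60, -0.20 ± 0.05 (adjusted p = 0.00235, edgeR), and once length and GC content of the transcripts were offset it was -0.07 and no longer passed the test (adjusted p = 0.184, edgeR). After siNTRK2 it differed from siCtrl_Sen by 0.04 ± 0.05 (adjusted p = 0.616, edgeR). BUB1 and BUB1B thus stood at 10.1% of the proliferating level in siCtrl_Sen while BUB3 stood at 87.2%.

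All 4 genes of the anaphase promoting complex step fell in senescence and 3 rose after siNTRK2, the activator CDC20, the ubiquitin-conjugating enzyme UBE2C and separase. CDC20 had the largest fall of the 60. It was at 57.4, 57.4 and 59.7 in proliferating cells, 3.83, 3.48 and 3.20 in siCtrl_Sen, 7.95, 6.19 and 6.63 in siNTRK2_Sen and 3.33, 3.43 and 4.47 in siBDNF_Sen. The fall was -4.05 ± 0.10 (adjusted p = 8.88e-21, edgeR), or 16.6-fold, and the rise after siNTRK2 0.99 ± 0.11 (adjusted p = 3.47e-07, edgeR), with no overlap between siNTRK2 and either other senescent group. The processed pseudogene CDC20P1, which may take some of its reads, had at most 101 counts in a library.

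PTTG1, which encodes securin, the inhibitor of separase, was at 36.3, 36.2 and 35.2 in proliferating cells, 10.1, 8.42 and 10.98 in siCtrl_Sen, 10.4, 10.7 and 9.09 in siNTRK2_Sen and 10.1, 9.34 and 8.54 in siBDNF_Sen. The senescent groups overlapped one another, and after siNTRK2 the difference was 0.03 ± 0.09 (adjusted p = 0.836, edgeR). ESPL1, separase itself, was at 7.52, 7.95 and 7.09 in proliferating cells and at 3.14, 2.81 and 3.13, then 3.31, 4.31 and 4.40, then 2.87, 2.94 and 3.04 in the senescent groups. Its rise after siNTRK2, 0.40 ± 0.13 (adjusted p = 0.0263, edgeR), was lost when any of 4 libraries was left out (siCtrl_Sen 1 or 2, siNTRK2_Sen 2 or 3), where it was 0.33 to 0.43, and with the compared groups alone. UBE2C rose by 0.67 ± 0.11 (adjusted p = 0.000134, edgeR).

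**Figure D4:**
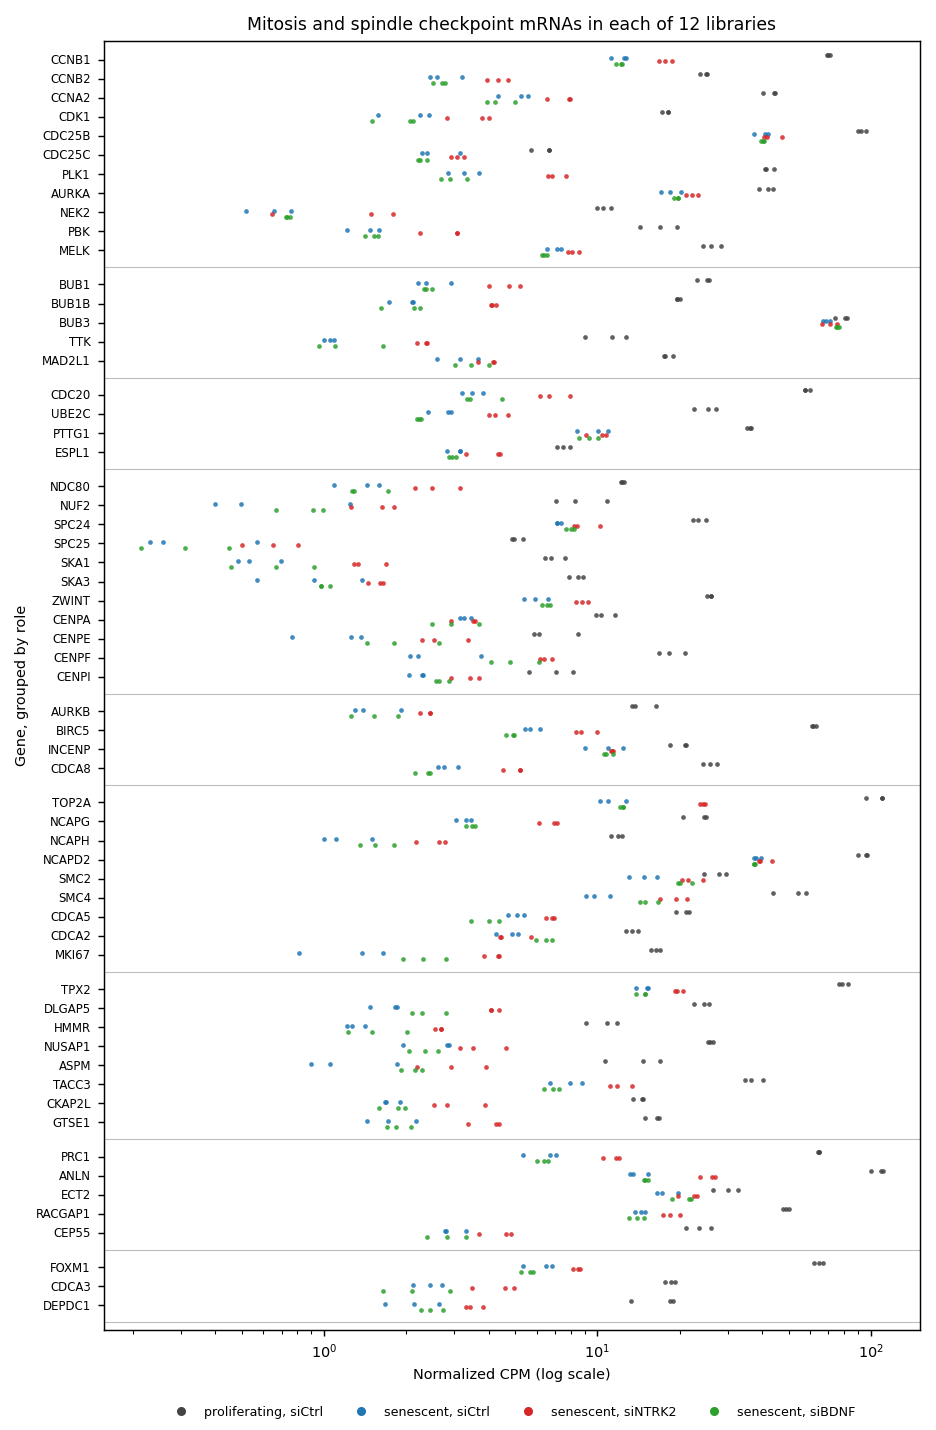
Normalized CPM (horizontal axis, log scale) of the 60 mRNAs (vertical axis, grouped by role) in each of the 12 libraries, colored by group with 3 points each. The proliferating points lie to the right of the senescent siCtrl points for all 60 genes, and the siNTRK2 points lie to the right of the siCtrl points for 49 of them.

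Among the 11 kinetochore and centromere genes, all fell in senescence, 9 rose after siNTRK2 and 2, CENPE and CENPF, rose after siBDNF. NDC80, the subunit that grips microtubules, was at 12.5, 12.3 and 12.2 in proliferating cells, 1.09, 1.58 and 1.44 in siCtrl_Sen, 2.49, 3.14 and 2.16 in siNTRK2_Sen and 1.71, 1.29 and 1.27 in siBDNF_Sen. It rose by 0.92 ± 0.16 after siNTRK2 (adjusted p = 0.000215, edgeR), with no overlap. Its partner NUF2 was lower and more variable, at 0.499, 1.24 and 0.398 in siCtrl_Sen and 1.26, 1.63 and 1.81 in siNTRK2_Sen, and its rise of 1.12 ± 0.29 (adjusted p = 0.0058, edgeR) did not pass the test without the third siCtrl_Sen library (0.84).

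The remaining NDC80 complex genes, SPC24 and SPC25, fell by different amounts, -1.70 ± 0.09 and -3.83 ± 0.27 on the log2 scale (adjusted p = 9.64e-15 and 5.57e-12, edgeR). SPC25 had as few as 7 counts in a senescent library, the lowest count of the 60 without regard to transcript length, and its difference of 0.86 ± 0.31 after siNTRK2 missed the threshold (adjusted p = 0.0503, edgeR). SKA1, which couples kinetochores to shortening microtubules, was at 6.42, 7.62 and 6.79 in proliferating cells, 0.695, 0.534 and 0.485 in siCtrl_Sen, 1.68, 1.33 and 1.29 in siNTRK2_Sen and 0.458, 0.916 and 0.669 in siBDNF_Sen. Its rise after siNTRK2, 1.33 ± 0.22 (adjusted p = 8.88e-05, edgeR), was second among the 60 only to that of MKI67, and SKA3 of the same complex rose by 0.71 ± 0.21 (adjusted p = 0.0158, edgeR), a call lost with the compared groups alone and without siCtrl_Sen 1 (0.45) or 3 (0.69).

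CENPE, a kinetochore motor, and CENPF, a large kinetochore and nuclear matrix protein, were raised by both siRNAs. CENPE was at 8.47, 6.14 and 5.84 in proliferating cells, 1.37, 1.26 and 0.762 in siCtrl_Sen, 2.52, 2.28 and 3.35 in siNTRK2_Sen and 1.80, 2.63 and 1.44 in siBDNF_Sen. CENPF was at 18.3, 20.97 and 16.9, then 2.07, 3.74 and 2.22, then 6.19, 6.37 and 6.82, then 4.09, 6.12 and 4.803 in the same order. For both genes every library of either silenced group was above the siCtrl_Sen libraries. The rises of CENPE were 1.27 ± 0.23 after siNTRK2 (adjusted p = 0.000266, edgeR) and 0.80 ± 0.24 after siBDNF (adjusted p = 0.017, edgeR), the latter lost without siCtrl_Sen 3 (0.59) or siBDNF_Sen 2 (0.49), and those of CENPF 1.27 ± 0.16 (adjusted p = 3.57e-06, edgeR) and 0.93 ± 0.17 (adjusted p = 0.000259, edgeR).

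CENPA, the histone H3 variant that marks centromeres, was among the genes with the smallest differences after siNTRK2. Its level was 11.6, 10.3 and 9.88 in proliferating cells, 3.14, 3.26 and 3.46 in siCtrl_Sen, 3.57, 3.51 and 2.91 in siNTRK2_Sen and 3.69, 2.48 and 2.93 in siBDNF_Sen. The senescent groups overlapped, and the siNTRK2 difference was 0.02 ± 0.14 (adjusted p = 0.94, edgeR). CENPI, of the inner centromere network, and ZWINT, which links kinetochores to the checkpoint, rose by 0.60 ± 0.15 and 0.55 ± 0.09 after siNTRK2 (adjusted p = 0.00479 and 4.55e-05, edgeR).

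The chromosomal passenger complex corrects faulty attachments and steers cytokinesis, and its 4 subunits did not move together. AURKB, its kinase, was at 13.7, 13.4 and 16.4 in proliferating cells, 1.39, 1.91 and 1.30 in siCtrl_Sen, 2.25, 2.44 and 2.44 in siNTRK2_Sen and 1.86, 1.26 and 1.53 in siBDNF_Sen. BIRC5, which encodes survivin, was at 61.5, 60.7 and 63.2, then 6.15, 5.69 and 5.44, then 8.71, 9.98 and 8.36, then 4.91, 4.62 and 4.96. BIRC5 was thus one of the 2 genes of the 60 that passed the test as lower after siBDNF than in siCtrl_Sen, by -0.25 ± 0.09 (adjusted p = 0.0382, edgeR), while it rose by 0.65 ± 0.08 after siNTRK2 (adjusted p = 2.3e-06, edgeR). The siBDNF call did not survive library totals in place of TMM, no filter on low counts, a fit of the compared groups alone or the length and GC offset, nor leaving out siCtrl_Sen 1 or 2 or any of the siBDNF_Sen libraries (-0.28 to -0.21).

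INCENP, the scaffold of the complex, was at 21.1, 18.5 and 20.9 in proliferating cells, 12.4, 8.98 and 10.9 in siCtrl_Sen, 11.4, 11.3 and 11.2 in siNTRK2_Sen and 10.7, 10.5 and 11.4 in siBDNF_Sen. It kept 53.4% of its proliferating level in siCtrl_Sen, where AURKB, BIRC5 and CDCA8 kept 10.6%, 9.31% and 10.9%. After siNTRK2 it differed by 0.07 ± 0.09 (adjusted p = 0.646, edgeR), whereas CDCA8 (borealin), at 24.3, 25.7 and 27.4 in proliferating cells, 2.74, 2.62 and 3.08 in siCtrl_Sen, 5.22, 4.54 and 5.22 in siNTRK2_Sen and 2.44, 2.16 and 2.401 in siBDNF_Sen, rose by 0.83 ± 0.11 (adjusted p = 3.46e-06, edgeR) and AURKB by 0.63 ± 0.16 (adjusted p = 0.00651, edgeR).

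Of the 9 genes of chromosome structure and cohesion, all fell in senescence, 7 rose after siNTRK2, and after siBDNF 4 rose and 1 fell. TOP2A, topoisomerase II alpha, which untangles sister chromatids and is a target of etoposide, was at 110, 110 and 96.3 in proliferating cells, 10.9, 12.7 and 10.3 in siCtrl_Sen, 24.4, 24.8 and 23.8 in siNTRK2_Sen and 12.1, 12.4 and 12.5 in siBDNF_Sen. The siNTRK2 libraries were tightly grouped at 23.1% of the proliferating mean, up from 10.7% in siCtrl_Sen, a rise of 1.11 ± 0.07 (adjusted p = 7.09e-11, edgeR).

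MKI67, which encodes Ki-67, the coat protein of mitotic chromosomes and the usual marker of cycling cells, had the largest rise after siNTRK2. It was at 15.8, 16.9 and 16.4 in proliferating cells, 1.64, 1.38 and 0.814 in siCtrl_Sen, 4.35, 3.85 and 4.36 in siNTRK2_Sen and 1.95, 2.79 and 2.30 in siBDNF_Sen. The 3 senescent groups did not overlap, with siCtrl_Sen lowest and siNTRK2_Sen highest. It kept 7.80% of its proliferating level in siCtrl_Sen, 25.6% after siNTRK2 and 14.3% after siBDNF, with rises of 1.72 ± 0.17 (adjusted p = 4.33e-08, edgeR) and 0.91 ± 0.18 (adjusted p = 0.000553, edgeR), and siNTRK2 exceeded siBDNF by 0.81 ± 0.15 (adjusted p = 0.000472, edgeR).

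Condensin compacts mitotic chromosomes, and its 5 subunits in the set moved unequally. SMC4, one of its ATPases, was at 57.9, 54.2 and 43.9 in proliferating cells, 9.69, 11.2 and 9.07 in siCtrl_Sen, 16.97, 21.3 and 19.4 in siNTRK2_Sen and 14.99, 16.7 and 14.3 in siBDNF_Sen, with rises of 0.95 ± 0.10 (adjusted p = 2.11e-07, edgeR) and 0.62 ± 0.10 (adjusted p = 9.3e-05, edgeR). Its partner SMC2 kept 54.3% in siCtrl_Sen and stood at 81.0% and 75.7% after siNTRK2 and siBDNF, rises of 0.58 ± 0.09 (adjusted p = 3.27e-05, edgeR) and 0.48 ± 0.09 (adjusted p = 0.000293, edgeR). Both ATPases thus rose with either siRNA. SMC4 shares 1553 exonic bases with TRIM59 on the opposite strand, and TRIM59 had up to 1986 counts in a library.

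The non-ATPase subunits NCAPG and NCAPH, which are particular to condensin I, rose after siNTRK2 by 1.04 ± 0.11 and 1.07 ± 0.16 (adjusted p = 1.04e-07 and 2.85e-05, edgeR). NCAPD2, of the same complex, was at 89.7, 96.6 and 96.1 in proliferating cells, 38.2, 37.4 and 39.6 in siCtrl_Sen, 38.9, 43.4 and 39.5 in siNTRK2_Sen and 37.3, 37.7 and 37.4 in siBDNF_Sen. The siCtrl_Sen and siNTRK2_Sen libraries overlapped, and their difference was 0.08 ± 0.05 (adjusted p = 0.336, edgeR). NCAPD2 overlaps MRPL51 and NCAPG overlaps LCORL, each on the opposite strand, over 383 and 1634 exonic bases.

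CDCA5, or sororin, which protects cohesin, and CDCA2, which recruits a phosphatase to chromosomes at mitotic exit, went in opposite directions between the silenced groups. CDCA5 was at 19.4, 21.7 and 21.1 in proliferating cells, 5.08, 5.39 and 4.71 in siCtrl_Sen, 6.498, 6.91 and 6.84 in siNTRK2_Sen and 3.45, 4.004 and 4.35 in siBDNF_Sen. It rose by 0.41 ± 0.10 after siNTRK2 (adjusted p = 0.00323, edgeR) and was lower by -0.34 ± 0.10 after siBDNF (adjusted p = 0.0182, edgeR), although the siBDNF call was lost with the length and GC offset and without siCtrl_Sen 1 or 2 or siBDNF_Sen 1 or 2 (-0.34 to -0.27). CDCA2 was at 14.03, 13.4 and 12.7 in proliferating cells, 4.26, 5.13 and 4.86, then 4.45, 4.39 and 5.74, then 5.98, 6.81 and 6.48. It was the 1 gene of the 60 that passed the test as lower after siNTRK2 than after siBDNF, by -0.41 ± 0.11 (adjusted p = 0.0121, edgeR), and it rose after siBDNF by 0.44 ± 0.11 (adjusted p = 0.00568, edgeR) and differed from siCtrl_Sen by 0.03 ± 0.11 after siNTRK2 (adjusted p = 0.888, edgeR). The CDCA2 call between the siRNAs was lost without siNTRK2_Sen 1 or 2 or siBDNF_Sen 2 (-0.36 to -0.34).

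All 8 spindle assembly genes fell in senescence and all 8 rose after siNTRK2. TPX2, which activates Aurora A and nucleates microtubules around chromosomes, was at 76.7, 82.6 and 78.4 in proliferating cells, 13.8, 15.3 and 15.1 in siCtrl_Sen, 19.6, 20.6 and 19.3 in siNTRK2_Sen and 14.9, 13.9 and 14.9 in siBDNF_Sen, and its rise of 0.43 ± 0.06 (adjusted p = 2.28e-05, edgeR) was the smallest of the 8. DLGAP5 (HURP), which stabilizes microtubules near kinetochores, was at 24.5, 25.7 and 22.6, then 1.82, 1.84 and 1.47, then 4.36, 4.07 and 4.08, then 2.11, 2.79 and 2.28. The DLGAP5 groups did not overlap, and it rose by 1.29 ± 0.12 after siNTRK2 (adjusted p = 4.33e-08, edgeR) and by 0.51 ± 0.13 after siBDNF (adjusted p = 0.00742, edgeR), the latter lost without siCtrl_Sen 3 (0.41) or siBDNF_Sen 2 (0.38).

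ASPM, which focuses spindle poles, was at 16.9, 14.7 and 10.7 in proliferating cells, 1.05, 1.84 and 0.900 in siCtrl_Sen, 2.93, 2.197 and 3.91 in siNTRK2_Sen and 2.29, 2.16 and 1.92 in siBDNF_Sen. It rose with both siRNAs, by 1.25 ± 0.23 (adjusted p = 0.000253, edgeR) and 0.73 ± 0.24 (adjusted p = 0.0301, edgeR), but the siBDNF call was lost with DESeq2, with the length and GC offset and without siCtrl_Sen 1 or 3 or siBDNF_Sen 1 or 2 (0.53 to 0.71). GTSE1, a microtubule-tip protein, was at 14.9, 16.5 and 16.9 in proliferating cells, 1.71, 2.17 and 1.44 in siCtrl_Sen, 4.38, 3.37 and 4.27 in siNTRK2_Sen and 2.08, 1.70 and 1.83 in siBDNF_Sen. Its rise of 1.179 ± 0.143 (adjusted p = 1.53e-06, edgeR) came with a difference from siBDNF of 1.12 ± 0.14 (adjusted p = 3.03e-06, edgeR). HMMR, NUSAP1, TACC3 and CKAP2L, which bundle or anchor spindle microtubules, rose by 0.58 to 1.02 after siNTRK2, though NUSAP1 did not pass without siCtrl_Sen 3 (0.42) or siNTRK2_Sen 1 (0.39).

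The 5 cytokinesis genes all fell in senescence and all rose after siNTRK2. PRC1, which bundles the microtubules of the central spindle, was at 63.9, 64.4 and 64.5 in proliferating cells, 6.70, 7.06 and 5.37 in siCtrl_Sen, 10.5, 11.7 and 11.98 in siNTRK2_Sen and 6.59, 6.03 and 6.40 in siBDNF_Sen, with a rise of 0.84 ± 0.09 (adjusted p = 1.19e-07, edgeR). CEP55, of the midbody, was at 23.5, 26.0 and 21.1, then 3.31, 2.77 and 2.79, then 3.69, 4.82 and 4.64, then 2.81, 3.29 and 2.39, with a rise of 0.56 ± 0.13 (adjusted p = 0.0033, edgeR). In neither gene did siNTRK2_Sen overlap another group. PRC1 shares 1892 exonic bases with the antisense RNA PRC1-AS1, which had up to 822 counts in a library.

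ANLN, or anillin, the scaffold of the contractile ring, rose by 0.87 ± 0.07 after siNTRK2 (adjusted p = 1.28e-09, edgeR) and RACGAP1, of centralspindlin, by 0.37 ± 0.07 (adjusted p = 0.000385, edgeR). ECT2, the exchange factor that activates RHOA at the division plane, kept 60.1% of its proliferating level in siCtrl_Sen, more than any gene but BUB3. It was at 16.5, 19.8 and 17.2 in siCtrl_Sen and 19.8, 23.1 and 22.5 in siNTRK2_Sen, so that the groups touched, and its rise of 0.29 ± 0.09 (adjusted p = 0.0173, edgeR) was lost without siCtrl_Sen 1 or 3 or siNTRK2_Sen 2 or 3 (0.24 to 0.27).

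FOXM1, the transcription factor that drives many genes of this set late in the cycle, fell itself and rose less than most of them. It was at 62.0, 64.8 and 67.0 in proliferating cells, 5.36, 6.81 and 6.51 in siCtrl_Sen, 8.16, 8.51 and 8.60 in siNTRK2_Sen and 5.68, 5.26 and 5.79 in siBDNF_Sen. The siNTRK2 libraries lay above the other senescent libraries, with a rise of 0.43 ± 0.08 (adjusted p = 0.000495, edgeR) that brought the mRNA from 9.63% to 13.04% of its proliferating mean. FOXM1 shares 782 exonic bases with ITFG2 on the opposite strand. The other regulators CDCA3, which targets mitotic inhibitors for destruction, and DEPDC1 rose by 0.85 ± 0.16 and 0.71 ± 0.16 (adjusted p = 0.000298 and 0.00206, edgeR).

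Between genes, levels were compared per length as RPKM, group means of 3 libraries. In proliferating cells the highest were CDC20 at 28.9 RPKM, CCNB1 at 28.7, CDC25B at 23.8 and TPX2 at 21.98. In siCtrl_Sen the highest were CDC25B at 10.3, BUB3 at 8.40, AURKA at 6.35 and NCAPD2 at 5.94, while CDC20 stood at 1.74. The lowest in siCtrl_Sen were MKI67 at 0.0994, ASPM at 0.105 and CENPE at 0.114 RPKM, which after siNTRK2 stood at 0.326, 0.251 and 0.274.

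To set the fall in senescence beside the difference between the siRNAs without common libraries, siCtrl_Sen against siCtrl_Prolif was plotted against siNTRK2_Sen against siBDNF_Sen. Across the 60 genes the log2 fold changes of the comparisons had a Pearson r of -0.828 and a Spearman rho of -0.783, compared with -0.396 and -0.313 across the other 21458 tested genes. These values are across genes, which are not independent replicates and which share libraries within each comparison, and are given as a description. Genes that fell little, such as BUB3, INCENP, ECT2, SMC2, CDC25B and NCAPD2, were among the 15 that did not pass the test between the siRNAs, together with PTTG1, CENPA, SPC24, AURKA, MAD2L1, CENPI, CENPF, CENPE and ASPM. CDC25C (-1.29) and ESPL1 (-1.32) fell about as little as NCAPD2 (-1.29) and passed it. CENPF (-2.81), CENPE (-2.60) and ASPM (-3.48) fell far more and did not.

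**Figure D5:**
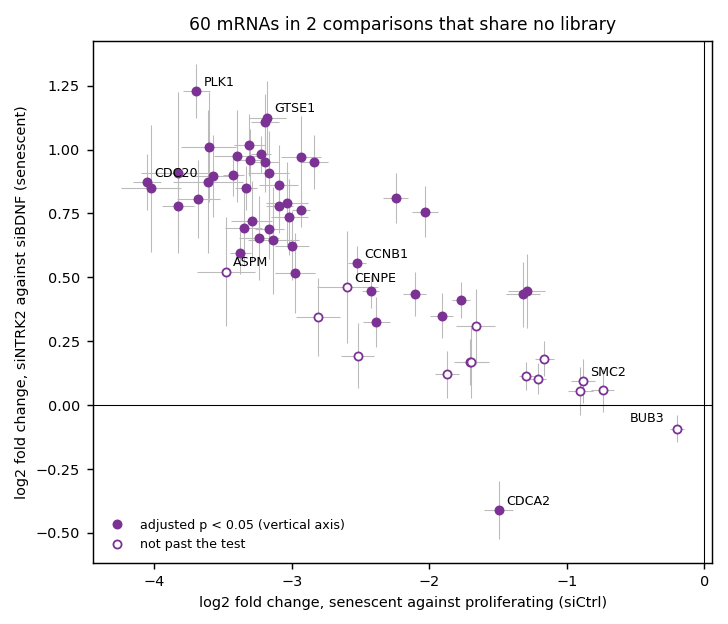
Log2 fold change ± standard error of each of the 60 mRNAs in siCtrl_Sen against siCtrl_Prolif (horizontal axis) and in siNTRK2_Sen against siBDNF_Sen (vertical axis), comparisons with no library in common; filled points passed an adjusted p of 0.05 on the vertical axis. PLK1 lies highest, at 1.23, BUB3 lies near 0 on both axes and CDCA2 lies alone below, at -0.41.

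The genes with either CHR spelling (TTTGAA or TTCGAA) in the promoter window and those with neither were set side by side as a description. Other spellings of the element were not searched, so the genes with neither may still have a CHR. The 39 genes with a match had a median log2 fold change of -3.03 in senescence, 0.84 after siNTRK2 and 0.76 between siNTRK2 and siBDNF, and the 11 without had -2.52, 0.60 and 0.56. The ranges overlapped in each comparison: after siNTRK2 the genes with a match ran from 0.02 (CENPA) to 1.72 (MKI67) and those without from 0.03 (PTTG1) to 1.27 (CENPE).

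After siBDNF the changes ran with transcript length and base composition. Across the 60 genes the log2 fold change had a Pearson r of 0.577 and a Spearman rho of 0.412 with the logarithm of exonic length, and -0.476 and -0.558 with GC content, compared with 0.131 and 0.197 and with -0.156 and -0.207 across the other 20678 tested genes with a gene model. After siNTRK2 the Pearson r of the 60 was 0.278 with length and -0.317 with GC content. With an offset for both, 6 of the 60 passed the test after siBDNF, all higher: CENPF at 0.79, MKI67 at 0.87, SMC4 at 0.50, CDCA2 at 0.45, DLGAP5 at 0.42 and SMC2 at 0.36. CENPE, ASPM, CDCA5 and BIRC5 no longer passed. The same offset left 52 called after siNTRK2, compared with 49 without it. Whether length or base composition had a part in these results was not tested further.

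The other genes of the same processes, 119 genes in 8 lists with none of the 60 among them, were counted in the same way. In senescence 87 of the 119 fell and 16 rose, with a median log2 fold change of -0.47, where 28.3% of all tested genes fell. After siNTRK2 48 rose and 6 fell, with a median of 0.16, where 11.1% of all tested genes rose and 10% fell. After siBDNF 31 rose and 6 fell (median 0.09), where 10.3% and 10.2% of all tested genes did, and between siNTRK2 and siBDNF 18 were higher and 6 lower (median 0.08), where 8.84% and 7.86% of all tested genes were. Among the 31 other kinetochore and centromere genes 25 fell in senescence and 12 rose after siNTRK2, among them KNL1, the platform on which the checkpoint proteins gather, by 1.05 ± 0.20 (adjusted p = 0.00039, edgeR). In the 21 spindle and centrosome genes the counts were 16 and 12, in the 17 core and regulatory genes of the anaphase promoting complex 8 and 5, and in the 13 of the general cytokinesis machinery 7 and 4. Opposite calls, higher in senescence and lower after siNTRK2, numbered 3 and 1 in the kinetochore list and 2 and 0 in the spindle list. They numbered 5 and 4 in the anaphase promoting complex list and 3 and 1 in the cytokinesis list. The median log2 fold changes of the last 2 lists were -0.10 and -0.11 in senescence and 0.08 and 0.01 after siNTRK2.

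Of the 12 genes of the DREAM and MuvB complexes, 10 fell in senescence and 2 rose after siNTRK2. MYBL2, or B-MYB, which joins MuvB to activate late cell cycle genes, fell by -4.06 ± 0.15 (adjusted p = 2.7e-17, edgeR) and rose by 0.77 ± 0.18 after siNTRK2 (adjusted p = 0.0026, edgeR). Of the 12 cohesin genes, 9 rose after siNTRK2 (11.1% of all tested genes did) and 7 after siBDNF (10.3% did), with medians of 0.26 and 0.29. Of the 10 other mitotic entry regulators 7 fell in senescence, and PLK4, the kinase of centriole duplication, fell by -3.59 ± 0.20 (adjusted p = 4.3e-14, edgeR) and rose by 1.15 ± 0.22 after siNTRK2 (adjusted p = 0.00041, edgeR). In this list 3 genes rose after siNTRK2 and 5 after siBDNF, with medians of 0.06 and 0.28. Between siNTRK2 and siBDNF, 0 of the 10 were higher after siNTRK2 and 3 were lower, where 8.84% and 7.86% of all tested genes were. All 3 genes of condensin II fell in senescence and 1, NCAPG2, rose after siNTRK2, by 0.61 ± 0.08 (adjusted p = 7.6e-06, edgeR).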

How the data were processed

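Stranded mRNA libraries were sequenced as paired ends. Per the study's methods, the authors demultiplexed with bcl2fastq 2.20.0.422, trimmed adapters with Cutadapt, aligned to hg19 with STAR 2.4.0j and counted with featureCounts 1.6.4. They deposited whole-number counts per Ensembl gene, without normalization, 1 file per library; the strand setting is not given in the sources used here.

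Counts were analyzed in R 4.3.3 with edgeR 4.0.16 (TMM, filterByExpr, 1 quasi-likelihood fit of all 12 libraries with a term per group). DESeq2, the tool of the study's methods, was tried as an alternative (version 1.42.0), and the study's threshold (adjusted p under 0.05 and absolute log2 fold change over 1) gave the second count of calls. Adjusted p-values are Benjamini-Hochberg over 21518 genes. Standard errors were obtained as the absolute log2 fold change over the root of F. RPKM used the exonic length of GENCODE gene models on GRCh37. The floor of detection was 3 counts, 0.0427 to 0.0916 normalized CPM, and covers counting error only, since without molecular identifiers reads may be copies of one molecule.

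Members and lists were chosen with earlier results of these data known. Any of the 60 genes could be named; values in every library are given for a core of cyclins, kinases and complex subunits, for the 3 largest rises and falls of each comparison and for some genes that missed a test, and from each other list the largest rise and fall could be named. The stretches of promoter printed, GTSE1, CDCA2 and CDCA5 were picked with their values known. On simulated counts for siNTRK2_Sen against siCtrl_Sen (20889 genes), edgeR recovered 79.1% of genes changed 1.5-fold and 97.0% of those changed 2-fold, with 9 false calls. The changed genes were drawn above a minimum level in siCtrl_Sen, which NEK2, NUF2, SPC25, SKA1 and SKA3 did not reach. With a GC trend added to the simulated siNTRK2_Sen counts, edgeR made 10412 false calls among 20865 genes. With the length and GC offset it made 14 among 20124. The simulated trend rose with GC content, and its size was a fixed setting, not estimated from the data. In the data the siNTRK2 change had a Pearson r of -0.108 with GC content across the other tested genes. The offset fits the variable that built the trend, so these counts do not give the error of the calls reported here. The alternatives were DESeq2, other scalings and filters, the compared groups alone, a replicate block and each library left out; an offset for length and GC content (splines with 4 degrees of freedom) was added after the data were seen.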

Additional observations from a re-analysis of the deposited data

Results flagged for a closer look

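Of the 60 mRNAs, 45 differed between siNTRK2_Sen and siBDNF_Sen at an adjusted p under 0.05 (edgeR), a test of the difference between the silenced groups itself; 44 were higher after siNTRK2 and 1, CDCA2, was lower, where 8.84% of all tested genes were higher and 7.86% lower. With any 1 of these 6 libraries left out, 38 to 41 of the 60 passed.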

How the results depend on the processing

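Under every alternative run, 59 of the 60 calls in senescence, 43 of 49 after siNTRK2, 5 of 10 after siBDNF and 35 of 45 between the siRNAs passed the test; BUB3 was the call lost in senescence. The median change in senescence was -2.84 with the length and GC offset and -3.12 to -2.95 with a library left out, with 60 called each time and 56 to 57 past the fold threshold. Leaving out a library gave 46 to 49 calls after siNTRK2 (14 to 21 past the fold threshold, median 0.66 to 0.73), 5 to 13 after siBDNF (5 without siBDNF_Sen 2; 0 to 2 past the fold threshold, median 0.03 to 0.08) and 38 to 41 between the siRNAs (5 to 9 past the fold threshold, with 8 without siNTRK2_Sen 1 and 9 without siNTRK2_Sen 2, median 0.68 to 0.70). The siBDNF count was 6 with the length and GC offset. With library totals only, the median was 0.11 after siBDNF and 0.65 between the siRNAs, with 3 past the fold threshold. DESeq2 called 60, 51, 11 and 44 of the 60 in the 4 comparisons. A minimum of 10 counts in every library leaves out SPC25, which then had no value.

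Signs turned after siNTRK2 for 5 genes, none of them called. With a library left out, BUB3 ran from -0.0017 to 0.098 (lowest without siNTRK2_Sen 3), PTTG1 from -0.054 to 0.13 (below 0 without siCtrl_Sen 2 or siNTRK2_Sen 2), CENPA from -0.038 to 0.11 (below 0 without siCtrl_Sen 1 or siNTRK2_Sen 1 or 2), INCENP from -0.032 to 0.19 (without siCtrl_Sen 2) and CDCA2 from -0.11 to 0.10 (without siCtrl_Sen 1 or siNTRK2_Sen 3), and BUB3 was at -0.041 with the offset. The cause of these changes was not tested. No pairing by the replicate numbers in the labels was visible: 0 of 18 same-numbered pairs had a correlation of deviations over 0.1, and 4 of 12 libraries correlated best with their own number. These correlations cannot show whether the samples were cultured or handled in matched sets. With a replicate block 60, 51, 10 and 46 of the 60 were called in the 4 comparisons. Depth limits members with few counts, such as SPC25, with as few as 7.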
